A study of Schizosaccharomyces pombe with 384 samples.

Results

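The transcriptome of the fission yeast strain labelled res2Δ, whose label names the deletion of a subunit gene of the transcription factor MBF, was compared with that of wild type. Of the 384 libraries of the series, 4 carry the identifier that the gene-name column of the deposited table gives as res2 (SPAC22F3.09c), and 8 are wild type. The 4 libraries of rep2Δ, the only other strain of the 94 labelled with the deletion of an MBF component, served as a second reference. The deletion strains are haploid and come from the Bioneer knockout library, and the methods do not name the source of wild type. They describe growth of the library in YES, a rich medium with glucose, at 32 °C, and add only a culture volume for the strains sequenced here. By the labels res2Δ sat in well H11, rep2Δ in well C3 and wild type in wells A1 and A2. The labels name a single well per deletion and no independent clones, so that each strain stands for 1 isolate and p-values measure the spread between these libraries. RNA was read by 3′ mRNA sequencing, in which each transcript yields reads near its polyadenylated end. Levels are therefore given as CPM, which is reads of a gene scaled by the authors to library size without regard to length, after the decimal point that most deposited values had lost was put back.

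MBF switches on the genes that a cell needs at the passage from G1 to S phase. It contains Cdc10 and the DNA-binding proteins Res1 and Res2 and binds the MCB element, whose core reads ACGCGT in either orientation. Rep2 is an activator that acts with Res2, whereas Nrm1 and Yox1 are corepressors that are themselves products of MBF target genes and close the wave of transcription. Res1 is best known from the mitotic cycle, and Res2 also from meiosis.

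The MCB core was searched in the 300 bases before the annotated start of each gene in the RefSeq annotation of the build ASM294v3. It was present before 10 of 24 genes of a list of MBF targets, or 41.7%, against 148 of 5112 protein-coding genes, or 2.9%. The 4 sequences shown are those of the genes that differed between res2Δ and rep2Δ and have the core in this window. They are written 5′ to 3′ on the strand of the gene, with 25 bases on either side of the outermost cores and every core in capitals. The window of ams2 lies at III:2000994-2001049, that of yox1 at II:1648150-1648205, that of tos4 at I:1922439-1922494 and that of cdc22 at I:4226883-4226948.
ams2: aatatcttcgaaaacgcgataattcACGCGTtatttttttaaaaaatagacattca
yox1: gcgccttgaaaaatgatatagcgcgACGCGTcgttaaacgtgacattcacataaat
tos4: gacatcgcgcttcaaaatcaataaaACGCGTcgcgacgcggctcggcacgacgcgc
cdc22: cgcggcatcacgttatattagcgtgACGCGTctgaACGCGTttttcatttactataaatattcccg
A single core began 140 bases before the start of ams2, 57 bases before yox1 and 79 bases before tos4, and cdc22 carried a pair at 62 and 52 bases. The other genes of the list that differed between the deletions, cdc18, dut1, cig2 and mik1, had no core in the window, which says only that these letters are not there. Among the protein-coding genes tested, the core was present before 4 of 142 genes called higher in res2Δ, or 2.82%, before 4 of 192 called lower, or 2.1%, and before 129 of all 4720, or 2.73%.

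The deleted gene was examined first. The res2 transcript (chromosome I, 686543 to 689179 in the deposited table, build ASM294v2, forward strand) was present at 18.4, 39.8, 32.0 and 30.1 CPM in the 4 libraries labelled res2Δ. It was at 6.80, 6.49, 5.32 and 4.67 CPM in rep2Δ, and wild type ranged from 2.33 to 9.84 CPM with a median of 4.71. All 4 libraries labelled res2Δ lay above every other library, so the 3′ level of res2 was raised, not lowered, in the strain labelled with its deletion. The mean of log2 (CPM + 1) was 4.91 ± 0.45 in res2Δ (SD, n = 4) and 2.58 ± 0.59 in wild type (SD, n = 8), a difference of 2.32 (exact permutation test over 495 splits, two-sided, p = 0.00202, the smallest this design allows). Across the other 93 strains the mean level ranged from 3.65 to 10.57 CPM, and the highest of the 380 libraries outside res2Δ had 15.0 CPM. In RefSeq (ASM294v3) the coding sequence ends at 688730 and the transcript at 689179, which leaves 449 bases in which reads can fall outside the coding sequence. Which part of the gene was removed is not given in the sources used here, so a 3′ level does not check the deletion, and every direction below is that of the libraries labelled res2Δ. The rep2 transcript, unlike that of res2, did not set its own strain apart. It had 26.0, 24.5, 20.6 and 19.1 CPM in rep2Δ and 17.3 to 36.4 CPM in wild type (exact permutation test, two-sided, p = 0.301, n = 4 and 8).

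**Figure D1:**
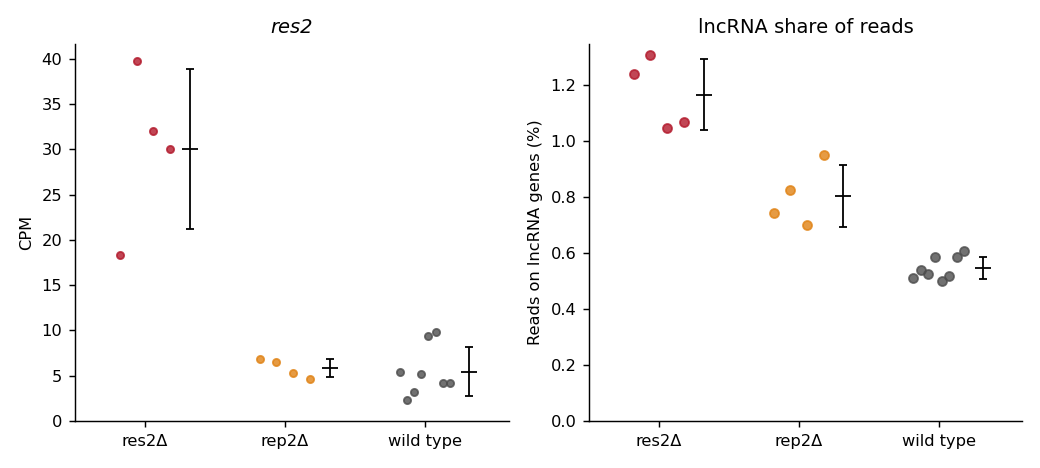
Left, CPM of the res2 transcript in each library (points) with the mean ± SD (bars) for res2Δ (n = 4), rep2Δ (n = 4) and wild type (n = 8). Right, the percentage of reads on genes annotated as lncRNA in the same libraries. The res2Δ libraries lie above all others in both panels, at 18.4 to 39.8 CPM and at 1.05 to 1.31% of reads.

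The 3 genes on either side of res2 did not pass the test against wild type. Of these 6, rok1, an RNA helicase gene, had a log2 fold change of 0.62 over wild type (SE 0.21, limma, adjusted p = 0.0645), and gcs1, snu23, rgs1, atp20 and SPAC22F3.15 had values between 0.10 and 0.39. rok1 was called higher with total reads (0.99), without wild type of well A1 replicate 3 (0.70) and by limma-voom on the restored reads (0.60), and it was higher in res2Δ than in rep2Δ (0.77, SE 0.19, adjusted p = 0.0589). With total reads atp20 (0.76) and snu23 (0.70) were called higher too, as were 1047 of 5515 transcripts in all.

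Read depth was similar in the 3 groups, with 1517971 to 1723505 reads on genes per res2Δ library, 1604592 to 1906094 per rep2Δ library and 1578511 to 2126622 per wild-type library. Where no read was seen, up to 3 reads remain possible, which is 1.41 to 1.69 CPM in res2Δ, 1.17 to 1.99 CPM in rep2Δ and 1.38 to 2.27 CPM in wild type, counting error alone considered. The authors' scaling, relative to the reads on genes, was 1.09 to 1.38 in res2Δ, 0.91 to 1.35 in rep2Δ and 0.82 to 1.06 in wild type. With CPM computed from total reads, the median log2 fold change of all transcripts moved to 0.41, against 0.04 with the authors' scaling. Replicate 1 of res2Δ carried the largest factor and the lowest share of reads on ribosomal protein genes, 41.1% against 46.2 to 47.0% in the other res2Δ libraries.

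Transcripts are described as higher or lower, and counted as called, where limma on log2 CPM passed the study's maximum p of 0.005 and the log2 fold change reached 0.6 in that direction. Of 5510 transcripts tested in res2Δ against wild type, 363 were higher, or 6.59%, and 194 lower, or 3.52%. All 557 also had a Benjamini-Hochberg adjusted p below 0.05. Only 5 of the 94 deletion strains had more called transcripts, and the median strain had 121.5. Of the higher transcripts 199 were lncRNA genes, or 27.7% of those tested, and 142 protein-coding genes, or 3.01%. Of the lower ones 192 were protein-coding genes, or 4.1% of those tested. Of the 557 transcripts 404 overlap another gene of the table, as 3821 of the 5510 tested do, and reads of overlapping partners cannot be told apart because no source used here says whether strand was used in counting.

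MBF target genes were examined as the genes closest to the deleted subunit. Of 25 listed targets 23 were tested, 2 were higher in res2Δ, or 8.7% against 6.59% of all transcripts, and 0 were lower. The median log2 fold change of the list was 0.30, against 0.04 for all transcripts. Both called genes, ams2 and yox1, and also psm3 and ssb2 had all 4 res2Δ libraries above wild type, as 5.54% of all transcripts did, and 0 targets had them all below. ams2 (SPCC290.04, chromosome III, 2001145 to 2004364), which encodes a GATA-type factor of histone gene transcription, had 73.5, 86.5, 89.3 and 69.6 CPM in res2Δ, 36.5, 36.4, 35.9 and 30.0 CPM in rep2Δ and 34.8 to 49.0 CPM in wild type (median 42.6). The 4 res2Δ libraries lay above all wild-type libraries, and the log2 fold change was 0.95 (SE 0.13, limma, adjusted p = 0.000761). yox1 (SPBC21B10.13c, chromosome II, 1648153 to 1650147), the corepressor, had 15.1, 15.9, 19.7 and 15.0 CPM in res2Δ, 4.94, 7.49, 7.97 and 7.40 CPM in rep2Δ and 8.29 to 13.2 CPM in wild type. Its log2 fold change of 0.62 (SE 0.16, limma, adjusted p = 0.0211) stood at the edge of the threshold, and the call was lost without res2Δ replicate 3 (0.53) and without any of 3 single wild-type libraries (0.57 to 0.59), namely replicates 3 and 4 of well A1 and replicate 4 of well A2. It was also lost with the wild type of either well alone, with centring (0.56), without a floor (0.58), with all libraries in a single fit and with the replicate number as a block.

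The other targets did not pass the test against wild type, although several had positive values. dut1, the dUTPase, had a log2 fold change of 0.53 (SE 0.21), with 240, 219 and 230 CPM in 3 of the res2Δ libraries but 105 CPM in replicate 1, against 107 to 156 CPM in wild type. Without replicate 1 it was called at 0.81, and 4 targets in all were called higher. cdc22 and suc22 encode the large and small subunits of ribonucleotide reductase, and their values were 0.42 (SE 0.20) and -0.16 (SE 0.13). cdc18, the loader of the MCM helicase, had 0.57 (SE 0.21), the S-phase cyclin gene cig2 0.57 (SE 0.22) and the cohesin gene psm3 0.59 (SE 0.14, adjusted p = 0.0116), short of the fold change threshold. psm3 was called higher with total reads (0.96), with wild type of well A1 only (0.68) and without any of 5 single libraries (0.60 to 0.65), among them res2Δ replicates 1 and 2. cdt1, which licenses origins together with cdc18, had 1.30 (SE 0.39, adjusted p = 0.0455) from 4.24, 2.65, 0.56 and 6.68 CPM in res2Δ and 0.64 to 3.03 CPM in wild type, where values below the floor near 1 CPM left the fit. tos4, which encodes a protein with a forkhead-associated (FHA) domain, had -0.01 (SE 0.20). mik1, the kinase that inhibits Cdc2, had the lowest value, -0.83 (SE 0.30, adjusted p = 0.0782), with 4.71, 5.83, 4.49 and 13.9 CPM in res2Δ and 7.58 to 18.5 CPM in wild type, and it was called lower at -1.20 without replicate 4. With CPM from total reads 9 of 23 targets were called higher, as were 1047 of 5515 transcripts in all, and relative to the median of all transcripts the list stood 0.26 higher under that scaling and 0.25 higher under the authors'.

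Of the 7 subunits and regulators of MBF, res2 and yox1 were called and the other 5 were not. cdc10 had a log2 fold change of 0.29 (SE 0.18), res1 of 0.01 (SE 0.25), rep2 of 0.29 (SE 0.21) and nrm1, the second corepressor, of -0.25 (SE 0.12). rep1, a paralogous activator that works in meiosis, was at 0.94, 4.77, 6.18 and 3.90 CPM in res2Δ, 6.80, 12.0, 6.65 and 11.7 CPM in rep2Δ and 4.19 to 10.4 CPM in wild type, with a log2 fold change of -0.54 (SE 0.25) that was not called. The lowest res2Δ value, 0.94 CPM in replicate 1, was below the floor and left the fit, so this change rests on the higher res2Δ values.

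The comparison with rep2Δ asked where the strain labelled with the deletion of the DNA-binding subunit differs from that labelled with the deletion of the activator, and neither label was borne out by the 3′ level of its own gene. It was made directly between the 4 libraries of each strain, without wild type. Of 5612 transcripts tested, 229 were higher in res2Δ, or 4.08%, and 71 lower, or 1.27%, and 149 of the 300 had an adjusted p below 0.05. Of the MBF targets 8 of 22 tested were higher in res2Δ than in rep2Δ and 0 lower, or 36.4% against 4.08%, and the median log2 fold change was 0.57 against 0.02 for all transcripts. cdc18 had 21.2, 30.2, 28.6 and 17.8 CPM in res2Δ and 3.71, 6.49, 1.99 and 7.79 CPM in rep2Δ, a log2 fold change of 2.44 (SE 0.39, limma, adjusted p = 0.0148). tos4 had 33.0, 70.5, 73.6 and 59.5 CPM in res2Δ and 18.5, 18, 7.97 and 10.9 CPM in rep2Δ, or 2.1 (SE 0.34, adjusted p = 0.014). The strains did not overlap in either gene. The log2 fold changes of dut1, mik1, cig2, cdc22, yox1 and ams2 were 1.89, 1.62, 1.48, 1.46, 1.26 and 1.20, and mik1 was the single one above an adjusted p of 0.05 (0.0857).

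Against wild type, with which both strains share the same 8 libraries, the targets took different places. In rep2Δ 8 of 22 targets tested were lower than wild type and 0 higher, where 0.382% of all transcripts were lower and 1.82% higher. tos4 had a log2 fold change of -2.12 in rep2Δ over wild type beside -0.01 in res2Δ, mik1 -2.45 beside -0.83, cdc18 -1.87 beside 0.57, and dut1 -1.36 beside 0.53. In tos4, mik1, cdc18 and dut1 every rep2Δ library lay below every wild-type library, whereas the res2Δ libraries overlapped wild type in all 4 genes.

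**Figure D2:**
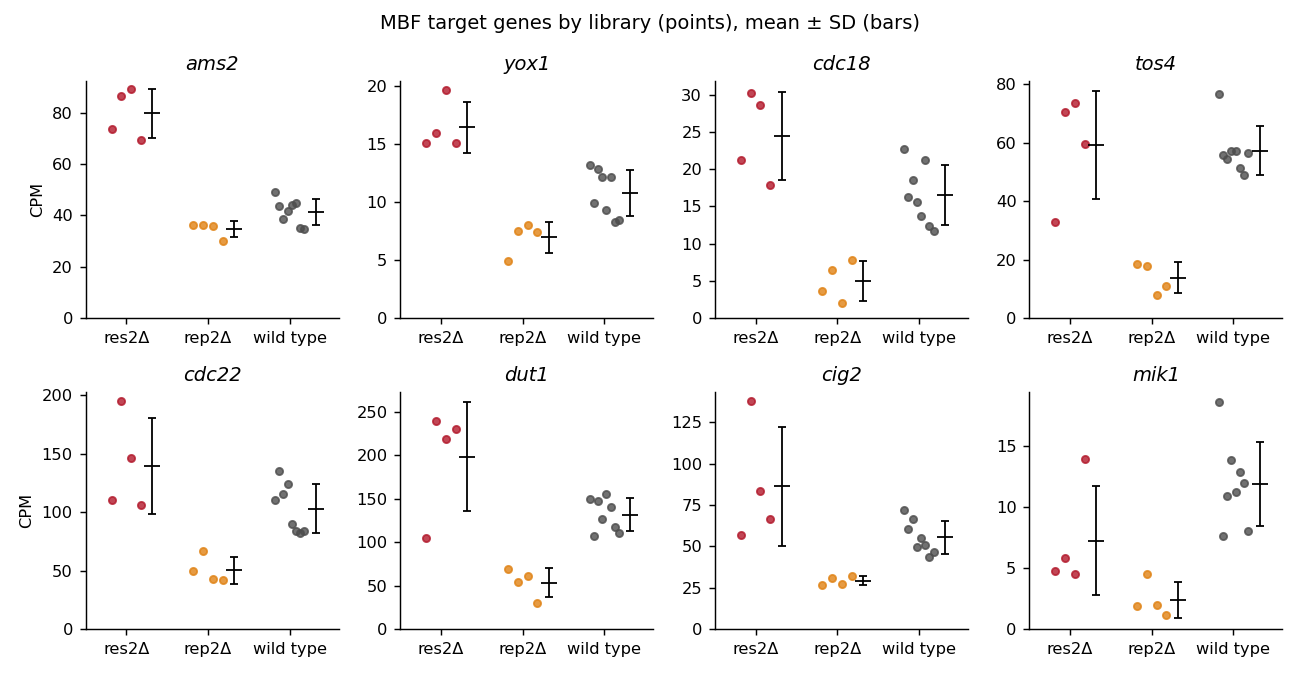
CPM of the 8 MBF target genes that differed between the deletions, in each library of res2Δ (n = 4), rep2Δ (n = 4) and wild type (n = 8), as points with the mean ± SD as bars and axes from 0. ams2 averages 79.7 CPM in res2Δ, 34.7 CPM in rep2Δ and 41.4 CPM in wild type, while tos4 averages 59.2, 13.8 and 57.3 CPM in the same order.

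The 5 transcripts higher in res2Δ than in rep2Δ with the smallest p were SPNCRNA.1114 with a log2 fold change of 2.06, res2 with 2.33, SPNCRNA.1141 with 1.46, SPNCRNA.623 with 1.73 and SPAC29E6.07, an uncharacterised protein gene, with 2.03. Of all 229 higher transcripts 114 were protein-coding genes and 98 lncRNA genes. The first 5 on the lower side had a higher mean in rep2Δ than in wild type, and 2 of them, wtf20 and SPCC1223.09, were called higher there. wtf20, of the wtf family of meiotic drivers, had 2.36, 3.18, 2.81 and 3.90 CPM in res2Δ, 9.27, 11.5, 12.0 and 14.0 CPM in rep2Δ and 1.17 to 4.0 CPM in wild type. The calcium pump gene pmc1 followed with -1.30, the uricase gene SPCC1223.09 with -1.46, SPBC725.03, a pyridoxamine 5′-phosphate oxidase gene, with -1.44 and atf21, of the Atf-CREB family, with -1.82. Levels of atf21 were 1.06 to 2.36 CPM in res2Δ, near the floor, 4.99 to 5.98 CPM in rep2Δ and 0 to 2.27 CPM in wild type. It was too low in wild type to be tested against it, so the lack of a call there is not a result.

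Replication and cell cycle control were measured in 3 further lists. Of 42 replication licensing and fork genes, 10 core histone genes and 18 cyclin and CDK control genes tested, 0 were called in either direction, with median log2 fold changes of 0.11, -0.02 and -0.16. Of all transcripts 6.59% were higher and 3.52% lower, so 0 calls in lists this short say little about these genes. The unadjusted limma p was below 0.05 for 6, 1 and 6 genes of these lists, and for 1642 of all 5510 transcripts. With limma-voom on the restored reads 0 were called as well. Leaving out single libraries gave up to 2 replication genes (without wild type of well A1 replicate 4) and 1 cyclin gene (without res2Δ replicate 4). With total reads 6 replication and 3 cyclin genes were called higher, as were 1047 of 5515 transcripts in all. Outside these lists, kpa1, which encodes a translesion polymerase of the kappa type, was among the 12 higher transcripts with the smallest p. It had 41.0, 45.1, 51.7 and 59.5 CPM in res2Δ and 13.4 to 25.5 CPM in wild type, or 1.51 (SE 0.18, adjusted p = 0.000275), and the mean level of res2Δ was the highest of the 94 strains.

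Of 28 pheromone response and mating genes 3 were higher and 1 lower, or 10.7% and 3.57% against 6.59% and 3.52% of all transcripts. ste6, the exchange factor that activates Ras1 in the pheromone response, had 7.07, 9.55, 11.2 and 11 CPM in res2Δ, 3.71, 3.00, 11.3 and 1.56 CPM in rep2Δ and 1.17 to 3.29 CPM in wild type, a log2 fold change of 2.29 (SE 0.28, adjusted p = 0.000341). All 4 res2Δ libraries were above wild type, and 1 library of rep2Δ reached the same level. These values depend on where lost decimal points were put back: with ambiguous values placed without regard to the strain, ste6 had 1.46 and was not called. The mating regulator map1 had 1.15 and the fusion formin gene fus1 1.0, while sxa1, a protease that degrades pheromone, had -0.67. The fus1 call was lost without res2Δ replicate 2 (0.73) or 4, without any of 5 single wild-type libraries (replicates 3 and 4 of well A1, replicate 3 and both libraries numbered 2 of well A2), with centring, with the replicate block and with wild type of well A1 only. The lower genes were 2 without res2Δ replicate 1 or wild type of well A1 replicate 4, and 0 with total reads. In rep2Δ over wild type 6 of 28 mating genes were higher, or 21.4% against 1.82% of all transcripts, and map1 was among them (1.56). Against rep2Δ 0 mating genes were higher in res2Δ and 3 lower, or 10.7% against 1.27% of all transcripts. Of 16 meiotic genes tested among 41 listed, 1 was higher, or 6.25%, namely rec24, with 10.4, 7.43, 4.49 and 6.12 CPM in res2Δ and 0.58 to 5.07 CPM in wild type. Its call was lost without res2Δ replicate 1, with the replicate block and with wild type of well A1 only. The higher genes were 2 without res2Δ replicate 2 and without any of 3 wild-type libraries, replicate 4 of either well and 1 of well A2 with replicate number 2. Of 27 Sty1-Atf1 stress genes, the glutathione transferase gene gst2 (1.17) and the sulfiredoxin gene srx1 (1.34, chosen after its values were seen) were higher, and the chaperone gene ssa2 (-1.1), gpd1 of glycerol synthesis (-0.79) and the transcription factor gene pcr1 (-0.71) were lower. Without res2Δ replicate 1 the counts were 1 higher and 1 lower, the higher count varied between 1 and 4 without other single libraries of either group, and the median of -0.19 became 0.18 with total reads. The calls of gpd1 and pcr1 were both lost with total reads and with wild type of either well alone. That of gpd1 was also lost without res2Δ replicate 1, 3 or 4 and without single wild-type libraries. That of pcr1 was also lost without res2Δ replicate 1 or 2, with the replicate block and with all libraries in a single fit.

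Noncoding RNAs were the largest class of higher transcripts. Of 718 lncRNA genes tested 199 were higher and 2 lower, or 27.7% and 0.279%, against 142 higher and 192 lower of 4720 protein-coding genes, or 3.01% and 4.1%. The median log2 fold change was 0.61 for lncRNA genes and -0.01 for protein-coding genes. In rep2Δ over wild type 62 of 711 lncRNA genes were higher and 1 lower, with a median of 0.33. The higher ones were 8.72%, against 1.82% of all transcripts. Reads on lncRNA genes made up 1.24, 1.31, 1.05 and 1.1% of the res2Δ libraries, 0.74, 0.82, 0.70 and 0.95% of the rep2Δ libraries and 0.50 to 0.61% of the wild-type libraries. The groups did not overlap, and the mean share of res2Δ was the second highest of the 94 strains. This list and those of the following paragraphs on translation and metabolism were chosen after values had been seen, so that their counts are descriptions.

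The difference between the classes was also seen within ranges of level, although lncRNA genes lay lower within each range. Among transcripts with a mean below 5 CPM, 22.9% of lncRNA genes were higher in res2Δ against 6.73% of protein-coding genes, with median wild-type levels of 2.70 and 3.07 CPM. From 5 to 20 CPM, 29.8% of lncRNA genes were higher against 3.78% of protein-coding genes (medians of 7.28 and 11.7 CPM), and from 20 to 100 CPM 37.3% against 2.95% (medians of 22.2 and 39.1 CPM). It was seen with and without an overlap with a protein-coding gene, since 43.4% of 129 lncRNA genes with no such overlap were higher, against 24.3% of 589 with one. Among protein-coding genes the share called lower grew with the level, to 15.5% of 946 genes at 100 CPM or more. Depth, RNA quality and the handling of the plate were not tested as sources of the lncRNA difference; the strains in the adjacent wells, H10 and H12, had 0.68 and 0.73% of reads on lncRNA genes.

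**Figure D3:**
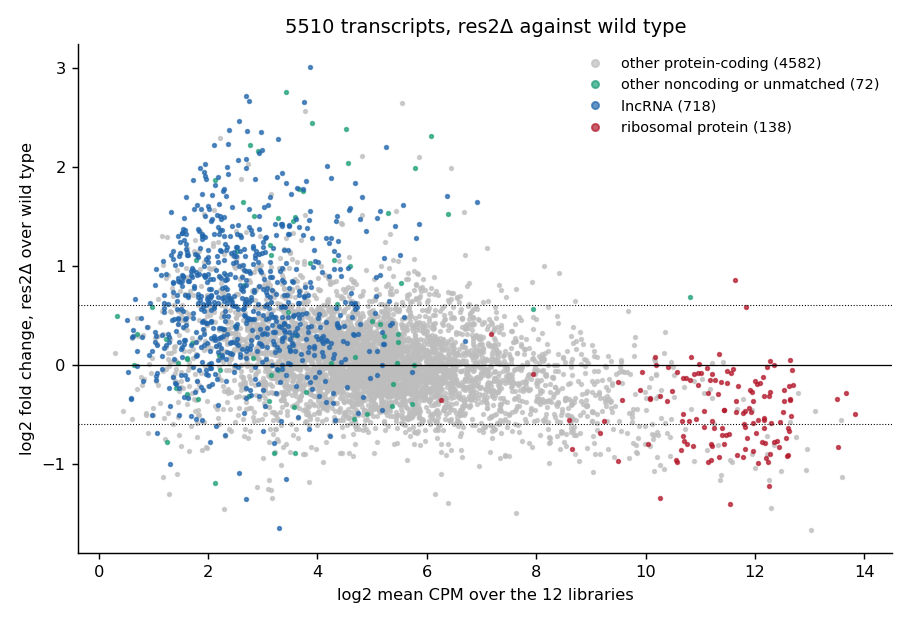
Log2 fold change of res2Δ over wild type against the log2 mean CPM of the 12 libraries for 5510 transcripts, with dotted lines at 0.6 and -0.6. lncRNA genes (blue, 718) spread upwards at low levels, and ribosomal protein genes (red, 138) lie mostly below 0 at high levels, with a median of -0.47.

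SPNCRNA.1436 (chromosome II, 1467902 to 1468396), a noncoding RNA with no match in the reference annotation, had the smallest p of all transcripts. It had 118, 206, 135 and 118 CPM in res2Δ, 24.1, 46.4, 37.9 and 45.9 CPM in rep2Δ and 21.2 to 37.5 CPM in wild type, a log2 fold change of 2.31 (SE 0.19, limma, adjusted p = 3.32e-05). SPNCRNA.623 (chromosome I, 213527 to 215928) had 56.1, 49.3, 53.4 and 39.0 CPM in res2Δ, 12.4, 14.0, 14.0 and 19.9 CPM in rep2Δ and 10.3 to 17.4 CPM in wild type, or 1.83 (SE 0.16, adjusted p = 6.59e-05). In both, the 4 res2Δ libraries stood above all libraries of rep2Δ and wild type. SPNCRNA.1595, SPNCRNA.242, SPNCRNA.893, SPNCRNA.1290, SPNCRNA.427 and SPNCRNA.1141 had log2 fold changes of 2.71, 2.20, 1.99, 1.78, 1.70 and 1.39. That of SPNCRNA.1141 was 0.56 and not called with ambiguous decimal points placed without regard to the strain. The protein-coding genes among the first 12 were SPAC29E6.07 (2.1) and SPBC1711.15c (1.99), both uncharacterised, kpa1, and tfx1, of the translin family (1.33), which was also higher in rep2Δ than in wild type (0.82). Of 22 snoRNA genes tested 8 were higher, or 36.4% against 6.59% of all transcripts, and 0 lower. The values of snoR61, snoR02, SPNCRNA.1394 and snoR58 were 1.53, 1.75, 2.76 and 2.22. These small RNAs guide the modification of ribosomal RNA and lack a poly(A) tail in their mature form.

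Ribosome assembly genes and ribosomal protein genes lay on opposite sides. Of 83 genes whose product is annotated as ribosome biogenesis or rRNA processing 16 were higher, or 19.3% against 6.59% of all transcripts. Among them 0 were lower, and the median was 0.46 in res2Δ over wild type. Against rep2Δ 25 were higher, or 30.1% against 4.08% of all transcripts, with a median of 0.55. cgr1 had 164, 171, 165 and 139 CPM in res2Δ, 66.1, 53.4, 83.1 and 71.6 CPM in rep2Δ and 47.4 to 102 CPM in wild type, a log2 fold change of 1.1 (SE 0.21, adjusted p = 0.00422), and res2Δ did not overlap with either group. SPAC25H1.08c, SPBC32H8.05 and fyv7 had 0.80, 0.76 and 0.70. The count was 7 without res2Δ replicate 1, 10 without replicate 2 or 3, 9 without 1 of the wild-type libraries of well A2 with replicate number 2, and 51 with total reads. Under that last scaling 1047 of 5515 transcripts in all were called higher.

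Of 138 cytoplasmic ribosomal protein genes 49 were lower in res2Δ, or 35.5% against 3.52% of all transcripts, and 1, rpp202 (0.86), was higher. The median was -0.47, and it was -0.17 in res2Δ over rep2Δ, where 0 were called. In rep2Δ over wild type the median was -0.26, with 132 of the 138 genes negative and 0 called. rps1401, of the small subunit, had 496, 462, 756 and 756 CPM in res2Δ, 1164, 849, 1636 and 670 CPM in rep2Δ and 1345 to 1759 CPM in wild type, a log2 fold change of -1.34 (SE 0.16, adjusted p = 0.000275). The res2Δ libraries lay below all wild-type libraries, and those of rep2Δ reached into both. rpl301, rps1001 and rpl803 had -0.97, -0.79 and -0.77. Without res2Δ replicate 1 the count of lower genes was 27, and with total reads 7 were lower and 2 higher, as 2 were without wild type replicate 3 of either well. Relative to the median of all transcripts the list stood at -0.51 under both scalings.

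Of 9 elongation factor genes 6 were lower, or 66.7% against 3.52% of all transcripts, and 0 higher, with a median of -0.71. The EF-1 alpha genes tef101 and tef102 had -1.45 (SE 0.25) and -1.16 (SE 0.21), tif512, of eIF5A, had -0.89, and eft201, of EF-2, had -0.71. Without res2Δ replicate 1 the count of lower genes was 4, and with total reads it was 3. In rep2Δ over wild type all 9 elongation factor genes had negative values, with a median of -0.47, and 0 were called. Between the deletions 0 were called as well. Of 35 aminoacyl-tRNA synthetase genes, those for tyrosine (yrs1, -0.90), lysine (krs1, -0.75), asparagine (nrs1, -0.71) and leucine (lrs1, -0.63) were lower, or 11.4%, and 0 were higher. The lower ones were 7 without res2Δ replicate 3 and 9 with each library centred on its median. The synthetase median of -0.28 became 0.09 with total reads, where 1 gene was called higher and 0 lower.

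Glycolysis and fermentation had the lowest median of the lists. Of 17 enzyme genes 9 were lower, or 52.9% against 3.52% of all transcripts, and 0 higher. The median was -0.73, or -0.36 with total reads, when 7 were lower and 1 higher. Without any of 3 wild-type libraries, replicate 3 of well A1, replicate 4 of well A2 and 1 of well A2 with replicate number 2, 1 was higher too. In rep2Δ over wild type the median of the list was -0.62 and 3 genes were lower, or 17.6% against 0.382% of all transcripts. pgk1 was among these (-0.62), and 0 of the 17 genes were called between the deletions. eno101, the enolase gene (SPBC1815.01, chromosome II, 2201159 to 2202652), had 2555, 3319, 3409 and 4298 CPM in res2Δ, 7498, 5638, 10460 and 2384 CPM in rep2Δ and 7935 to 13120 CPM in wild type, a log2 fold change of -1.66 (SE 0.18, adjusted p = 0.000241). The res2Δ libraries lay below every wild-type library, and the rep2Δ libraries spread across both. Several of these genes have near-identical copies (tef101 and tef102, rps1401 and rps1402, and many other ribosomal protein genes), between which counting can split reads, so values of single copies are uncertain. pgk1, fba1 and pgi1, for phosphoglycerate kinase, aldolase and glucose-6-phosphate isomerase, had -1.13, -1.06 and -1.05. Reads on the glycolytic genes were 5.16 to 5.70% in res2Δ, 5.0 to 7.0% in rep2Δ and 7.19 to 9.02% in wild type.

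**Figure D4:**
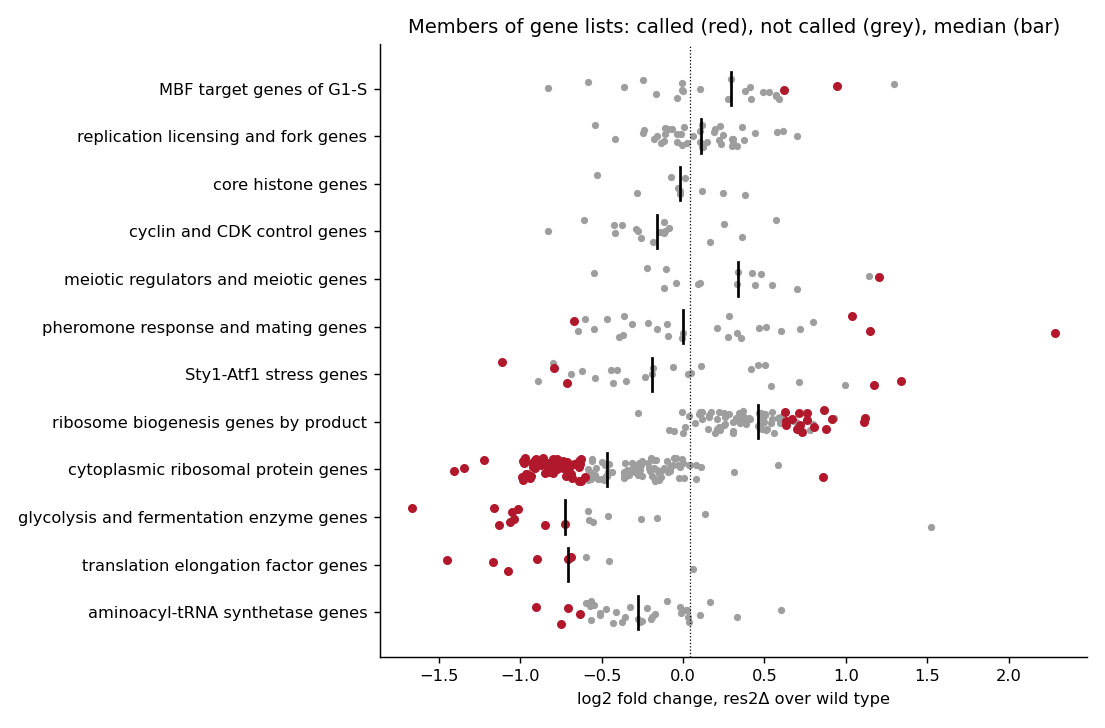
Log2 fold change of res2Δ over wild type for the tested members of 12 gene lists, with called members in red, others in grey, the median of each list as a bar and that of all transcripts (0.04) as a dotted line. MBF targets have a median of 0.30, ribosome biogenesis genes of 0.46 and glycolytic genes of -0.73.

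Enzymes of nitrogen and amino acid metabolism were among the 12 lower transcripts with the smallest p. gdh1, the NADP-dependent glutamate dehydrogenase that fixes ammonium, had 87.2, 61.0, 84.8 and 134 CPM in res2Δ, 185, 209, 174 and 135 CPM in rep2Δ and 220 to 312 CPM in wild type, a log2 fold change of -1.5 (SE 0.18, adjusted p = 0.000302). It was the single one of these 12 that was also called lower in res2Δ than in rep2Δ (-0.97, SE 0.25, adjusted p = 0.0699). gln1, the glutamine synthetase gene, had -0.94 and ilv5, of branched-chain amino acid synthesis, -0.98. The mitochondrial chaperone gene ssc1 (-0.97), fyu1 (-0.99), which makes UDP-glucose, the transketolase gene SPBC2G5.05 (-0.82), yrs1 and SPAC1002.12c (-0.89), a putative succinate-semialdehyde dehydrogenase gene, completed the group with eno101, rps1401, pgk1 and pgi1. With total reads gln1 (-0.57), SPBC2G5.05 (-0.45), SPAC1002.12c (-0.52) and yrs1 (-0.53) were no longer called.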

How the data were processed

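Libraries were grouped by the strain in the labels. According to the study's methods, libraries were made with the Lexogen FWD kit for 3′ ends, which keeps the strand, and reads were aligned with STAR 2.6.1b to ASM294v2. HTSeq 0.9.0 and Subread 1.6.2 are both listed, and which of them counted, and with which strand setting, is not given in the sources used here. The authors deposited CPM per gene and library (unit other), in which 78.8% of the values had lost their decimal point. Values are whole multiples of that of 1 read, so the point and the reads were restored; 10.4% of the values fitted several positions and were placed by the other libraries of the strain. No count model was used for the main result. limma 3.58.1 (R 4.3.3) was run on log2 CPM without a pseudocount, after values below the floor of the methods, close to 1 CPM, were removed, for transcripts with 3 of 4 values per strain and 6 of 8 in wild type; a missing value was left out and not imputed as in the methods, so a fold change of a low transcript rests on the values left. Calls needed a p no greater than 0.005 and a change of 0.6 or more on the log2 scale, the limits of the methods, with Benjamini-Hochberg adjustment over all transcripts tested. The decimal restoration and the test were tested on simulated data.

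Members and lists were chosen with earlier results of these data known. The lists of glycolysis, elongation, ribosomal protein, synthetase, ribosome biogenesis, lncRNA and snoRNA genes were chosen after values were seen. Named genes are the MBF regulators, the called MBF targets and the 3 best expressed others, the 12 with the lowest p among those higher and among those lower, up to 4 called members of each other list, the 3 genes on either side of res2, and the 5 on either side with the lowest p against rep2Δ; other MBF targets, rpp202 and srx1 were named after their values were seen. Of 25 listed MBF targets csx2 was not matched and cdt2 was too low to test. Of 7259 genes 6846 matched RefSeq (ASM294v3), from which classes, products and sequences were taken; gene coordinates are those of the table, and annotated starts of the builds can differ. Results of 2 of the lists are not reported here. No pair of the 16 libraries held the same reads, the most alike pair differing in 5813 genes.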

Additional observations from a re-analysis of the deposited data

Results flagged for a closer look

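In 282 sets of values, 94 named genes in each of the groups, 15 had a library that stood apart from the others of its group by Dixon's test at the 95% level, where chance alone gives about 1 in 20. In 7 of the 15 this was replicate 1 of res2Δ, the library with the largest scale factor (1.38) and the lowest share of ribosomal protein reads (41.1%). It was the lowest res2Δ library for dut1 (104.6 CPM), SPNCRNA.1595 (8.01 CPM), pgk1 (5502 CPM), map1 (3.77 CPM), ssa2 (839.2 CPM) and atp20 (117.3 CPM), and the highest for fyv7 (42.41 CPM). Replicate 4 of res2Δ was highest for mik1 (13.91 CPM) and for rgs1 (48.97 CPM), a neighbour of res2, and replicate 2 for SPAC29E6.07 (188.3 CPM). In rep2Δ, replicate 4 was lowest for ams2 (29.97 CPM) and replicate 3 for sxa1 (115.6 CPM). In wild type, replicate 1 of well A1 was highest for tos4 (76.55 CPM), and each of the 2 libraries of well A2 with replicate number 2 was highest once, for fyu1 (512.8 CPM) and for SPNCRNA.1114 (11 CPM). The sources of these values were not tested.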

How the results depend on the processing

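The count of altered transcripts in res2Δ against wild type was 557. It was 1070 with CPM from total reads (1047 higher and 23 lower, 97.9% higher against 65.2%), 347 with protein-coding genes only and 223 when only noncoding and unmatched genes were counted, the last chosen after seeing the data. Centring each library on its median gave 311 higher and 255 lower, or 54.9% higher, and leaving out single libraries gave 450 to 595. Of the 557, 386 remained called with total reads and 0 turned round under any alternative. Altered MBF targets against wild type, 2 in number, were 9 with total reads, 1 without a floor, 1 with centring and 1 with wild type of well A2 only, and 1 to 4 without single libraries. They were 1 without res2Δ replicate 3 or wild type of well A1 replicate 3 or 4, and 4 without res2Δ replicate 1. Against rep2Δ the 300 altered transcripts became 149 at an adjusted p below 0.05 and 201 to 309 without single libraries. Of them 76.3% were higher, against 94.1% with total reads, and the 8 MBF targets stayed between 7 and 10 in number. The res2 transcript kept its difference under every alternative, at 2.18 to 2.67 on the log2 scale. Of 59 named transcripts that were called, 36 kept the call under every alternative and 0 reversed.

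Same-numbered libraries did not deviate together in every pair (r = -0.03, 0.23, 0.22 and 0.16 with wild type, and -0.09, 0.34, 0.29 and 0.03 with rep2Δ, over 5155 transcripts), so no pairing was assumed. As a hint from the data, res2Δ replicates 2, 3 and 4 correlated best with their own number in wild type, and replicates 2 and 3 in rep2Δ. The block against wild type left out both libraries of well A2 numbered 2, so that 10 libraries remained. With the replicate number as a block, the counts against wild type were 550 and 2 MBF targets. For the same 10 libraries without a block they were 474 and 3. yox1 lost its call with the block, whereas psm3 was called in these libraries with it (0.68) and without it (0.66). The res2 difference was 2.28 with the block (exact permutation within blocks, p = 0.0278) and 2.19 without it. Against rep2Δ, with every library kept, the blocked counts were 323 and 8 (7 higher and 1 lower).

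Depth limits transcripts near the floor, such as cdt1, whose calls rest on few reads. With 1 well per deletion, strain and well cannot be told apart.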
